A study of Mus musculus with 4 samples.

Results

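The oligodendrocyte lineage genes followed here are 9 of the 55487 genes in each deposited table, taken by symbol: the precursor genes Sox10, Olig1, Olig2, Pdgfra and Cspg4, and the myelin genes Mbp, Mobp, Mog and Cnp. They were read in primary mouse astrocytes, grown past confluence, that differ in OASIS, the transcription factor encoded by Creb3l1 and anchored in the endoplasmic reticulum membrane. The 4 libraries were OASIS deficient with doxorubicin, OASIS wild type with doxorubicin, OASIS deficient untreated and OASIS wild type untreated. Doxorubicin, which poisons topoisomerase II, was applied for 1 h at 1 µg/ml, and those cultures were collected 24 h after its removal. Each combination is 1 library, the labels give neither the allele nor the number, age or sex of the animals, and nothing marks any culture as a replicate.

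Oligodendrocytes are the myelin-forming cells of the central nervous system. They arise from dividing precursor cells that carry the growth factor receptor PDGFRα and the proteoglycan NG2, and the transcription factors OLIG2 and SOX10 direct their identity and the switch to myelin genes. Cultures of astrocytes from newborn mouse brain are commonly known to hold some of these cells, while OLIG1, OLIG2 and the enzyme encoded by Cnp are not restricted to the lineage. Fewer cells of a type and less RNA per cell cannot be told apart in such bulk samples.

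The libraries held 17481188 to 22559613 counts, and values are given as CPM (counts scaled to library size by the TMM method) within a gene and as TPM (also scaled by transcript length) between genes. Astrocyte markers were abundant in all 4 libraries, with Gfap, the astrocyte intermediate filament, at 2475 and 577 TPM in deficient and wild type with doxorubicin and at 3073 and 612 TPM in deficient and wild type without treatment. Creb3l1 had 235 counts in deficient against 636 in wild type with doxorubicin, and 260 in deficient against 966 in wild type untreated, so it was lower under the deficient label without being absent. Xist had 2742 and 2547 counts in the libraries labelled doxorubicin and 0 and 1 in the untreated ones, whereas the Y-linked Ddx3y had 0 and 0 against 742 and 1567, each pair with deficient first. Doxorubicin and the sex of the culture therefore cannot be told apart. The 9 members lie on autosomes.

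The members together had higher RNA levels in both deficient libraries than in their wild-type counterparts. Their summed level was 590 TPM in deficient and 199 TPM in wild type with doxorubicin, and 562 TPM in deficient and 285 TPM in wild type without treatment. Olig1 and Cnp, which are not restricted to the lineage, carry most of each sum. With doxorubicin they stood at 308 and 138 TPM in deficient and at 101 and 74.7 TPM in wild type. Untreated they stood at 282 and 147 TPM in deficient and at 147 and 106 TPM in wild type. In an additive model of genotype and treatment (edgeR's quasi-likelihood test, Benjamini-Hochberg adjusted p of at most 0.05 over 15596 genes with a mean of at least 1 CPM), 8 of 9 members rose in deficient cultures, 0 fell, and Cspg4 did not pass. Of all genes tested, 12.6% rose and 10.6% fell. All 9 members reached the minimum of 1 CPM, but Sox10, Mobp and Mog reached it only through the deficient libraries, so those could only have entered by differing, and their calls are no separate evidence. The same holds below for Gpr17, Bcas1, Aspa, Aurkb and 3 neuronal genes, and, with wild type high, for Nipal4. The model keeps 1 residual degree of freedom, nothing shows that the cultures were independent, and its p-values speak for these libraries alone. By size, 7 of 9 members reached 2-fold or more above wild type with doxorubicin (10.7% of all genes higher, 9.55% lower) and the same number without (9.79% higher, 10.2% lower). The 7 were higher under both treatments (5.76% of all genes), and Cspg4 and Cnp were not among them. For all 9 members both deficient libraries lay above both wild-type libraries in CPM, which was so for 31.2% of all genes. On TPM Cspg4 did not keep this order, with 2.88 in deficient untreated against 3.43 in wild type with doxorubicin.

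**Figure D1:**
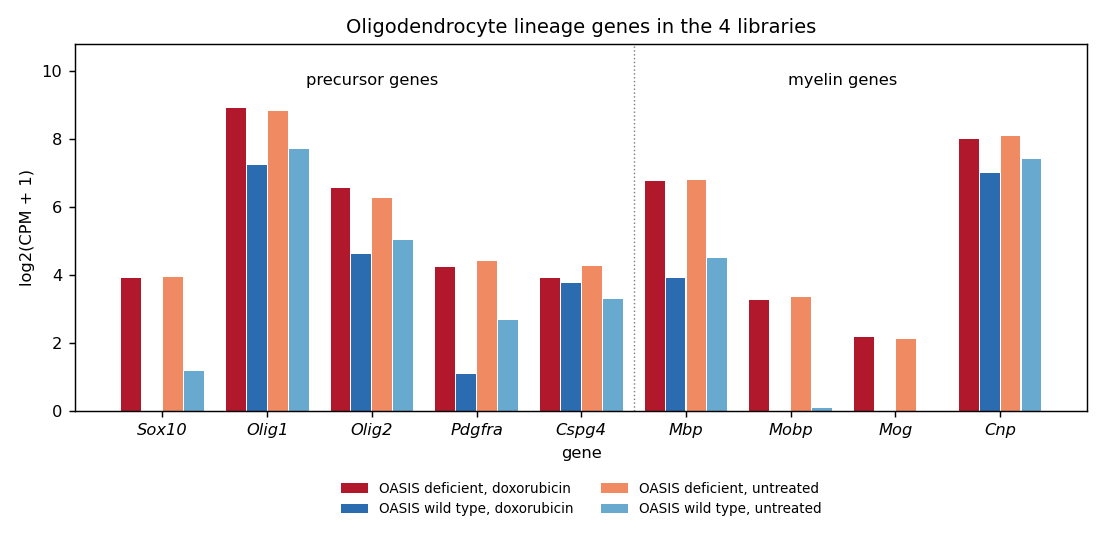
Level of each member gene as log2(CPM + 1) in the 4 libraries, 1 bar per library with no replicates and so no error bars; precursor genes are left of the dotted line and myelin genes right of it. The deficient bars stand above the wild-type bars of the same treatment for every gene, by the smallest margin for Cspg4 with doxorubicin (14.1 against 12.7 CPM), and a missing bar is a count of 0 (Mog in both wild-type libraries, Sox10 and Mobp in wild type with doxorubicin).

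Olig1 and Olig2, neighbouring genes on chromosome 16 that encode basic helix-loop-helix factors of the lineage, were well expressed everywhere. Olig2 (ENSMUSG00000039830.9, GRCm38 chromosome 16, 91225457 to 91228677, plus strand) had 1853 counts in deficient and 543 in wild type with doxorubicin, and 1305 in deficient and 626 in wild type untreated. The ratio of deficient to wild type was 3.95 with doxorubicin (95% exact conditional interval, for counting error only, 3.59 to 4.35) and 2.41 without (2.19 to 2.66). Olig1 (ENSMUSG00000046160.6, chromosome 16, 91269772 to 91271933, plus strand) had 9537 against 3461 counts with doxorubicin and 7738 against 4100 untreated, again with deficient first. That amounts to ratios of 3.19 (3.07 to 3.32) and 2.18 (2.10 to 2.27). In the additive test Olig2 had a log2 rise of 1.63 (SE 0.212, edgeR adjusted p 3.98e-05) and Olig1 one of 1.40 (SE 0.131, edgeR adjusted p 1.27e-06). The Olig1 to Olig2 ratio of TPM was 6.01 and 7.44 in deficient and wild type with doxorubicin and 6.95 and 7.66 in deficient and wild type untreated.

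Sox10, the high-mobility-group factor that activates myelin genes, was plainly detected in deficient and had few reads or none in wild type. Sox10 (ENSMUSG00000033006.10, chromosome 15, 79154908 to 79165240, minus strand) had 278 counts in deficient and 0 in wild type with doxorubicin, and 244 in deficient and 25 in wild type untreated. It was at least 107-fold higher in deficient with doxorubicin, against a floor of 3 counts in the wild-type library, and 11.3 times the wild-type level without (7.47 to 17.8). Sox10 averaged under 1 CPM in wild type, so it was tested only through the deficient libraries. Its call in the additive test (adjusted p 0.000729 by edgeR) was lost in DESeq2 (adjusted p 0.0681), where the fitted change was no smaller. Per unit length Sox10 reached 0.137 of the Olig2 level in deficient with doxorubicin and 0.167 in deficient untreated, against 0.0354 in wild type untreated.

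Pdgfra encodes the receptor for PDGF-AA on precursor cells, and Cspg4 the NG2 proteoglycan, which pericytes carry too. Pdgfra (ENSMUSG00000029231.15, chromosome 5, 75152292 to 75198215, plus strand) had 354 counts in deficient and 26 in wild type with doxorubicin, and 350 in deficient and 108 in wild type untreated, ratios of 15.8 (10.6 to 24.5) and 3.75 (3.01 to 4.70). Both deficient libraries lay close together while the wild-type ones were unlike each other. In the additive test Pdgfra had a log2 rise of 2.87 (SE 0.517, edgeR adjusted p 0.000759). Cspg4 (ENSMUSG00000032911.6, chromosome 9, 56865033 to 56899870, plus strand) had 279 counts in deficient and 290 in wild type with doxorubicin, and 312 in deficient and 177 in wild type untreated. Its ratio was 1.11 (0.942 to 1.32) with doxorubicin and 2.04 (1.69 to 2.47) without, and the additive estimate of 0.59 (SE 0.376, adjusted p 0.298 by edgeR) did not pass. For Cspg4 the genotype groups thus stayed close only under doxorubicin. Of 12 mural cell markers 9 were measured, 2 rose (Acta2 and Tagln, contractile proteins) and 1 fell (Notch3), beside 12.6% and 10.6% of all genes. Their summed level was 7170 and 2480 CPM in deficient and wild type with doxorubicin and 6570 and 1990 CPM in deficient and wild type untreated. Without Acta2 and Tagln, which carry that sum, it was 131 and 150 CPM with doxorubicin and 132 and 190 CPM untreated, deficient first. The pericyte channel gene Abcc9 had counts in wild type with doxorubicin alone (48), and Kcnj8 had 7 and 0 in deficient and wild type with doxorubicin and 0 and 27 in deficient and wild type untreated. The part of mural cells in the Cspg4 values was not tested. Fibroblasts also express Pdgfra, and of 12 fibroblast and meningeal markers 7 were measured and none passed in edgeR, Lum, Dpt and Pi16 were at 0 in both wild-type libraries, and the summed levels were 266 and 229 CPM in deficient and wild type with doxorubicin and 311 and 361 CPM in deficient and wild type untreated.

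Myelin genes split into those detected in all libraries and those at or near 0 in wild type. Mobp, a small protein of compact myelin, and Mog, a glycoprotein of the outermost myelin layer, had wild-type counts of 0 or 1, as did 50 of the 15596 genes tested (0.321%). Genes with such wild-type counts were tested only through the deficient libraries, so the filter shapes this share and it is no measure of rarity. Mobp (ENSMUSG00000032517.16, chromosome 9, 120149707 to 120181484, plus strand) had 169 counts in deficient and 0 in wild type with doxorubicin, and 158 in deficient and 1 in wild type untreated. It was at least 65.2-fold higher in deficient with doxorubicin, and the untreated ratio of 183 rests on that 1 wild-type count (32.3 to 7270). Mog (ENSMUSG00000076439.12, chromosome 17, 37010743 to 37023398, minus strand) had 70 and 58 counts in deficient with and without doxorubicin and 0 in both wild-type libraries, at least 27.0-fold and 22.4-fold higher in deficient. Adjusted p by edgeR were 4.18e-05 for Mobp and 0.00222 for Mog, which for the same reason are no separate evidence.

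Mbp, the major cytoplasmic protein of compact myelin, and Cnp, which encodes a phosphodiesterase of non-compact myelin, were present in every library. Mbp (ENSMUSG00000041607.17, chromosome 18, 82475146 to 82585637, plus strand) had 2119 counts in deficient and 318 in wild type with doxorubicin, and 1879 in deficient and 429 in wild type untreated. The count ratios were 7.71 (6.85 to 8.71) and 5.07 (4.56 to 5.64), and the additive log2 rise was 2.64 (SE 0.205, edgeR adjusted p 1.49e-07). Cnp (ENSMUSG00000006782.16, chromosome 11, 100574904 to 100591729, plus strand) had 5024 against 2924 counts with doxorubicin and 4714 against 3382 untreated, with deficient first. It showed ratios of 1.99 (1.90 to 2.08) and 1.61 (1.54 to 1.69), an additive log2 rise of 0.84 (SE 0.126, edgeR adjusted p 0.00015), and the smallest fold among the 8 called members. Cnp shares 154 of its 3639 exon bases with Dnajc7 on the other strand, which the kit does not tell apart, and Dnajc7 itself had 2302 and 2688 counts in deficient and wild type with doxorubicin and 2005 and 2086 in deficient and wild type untreated.

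**Figure D2:**
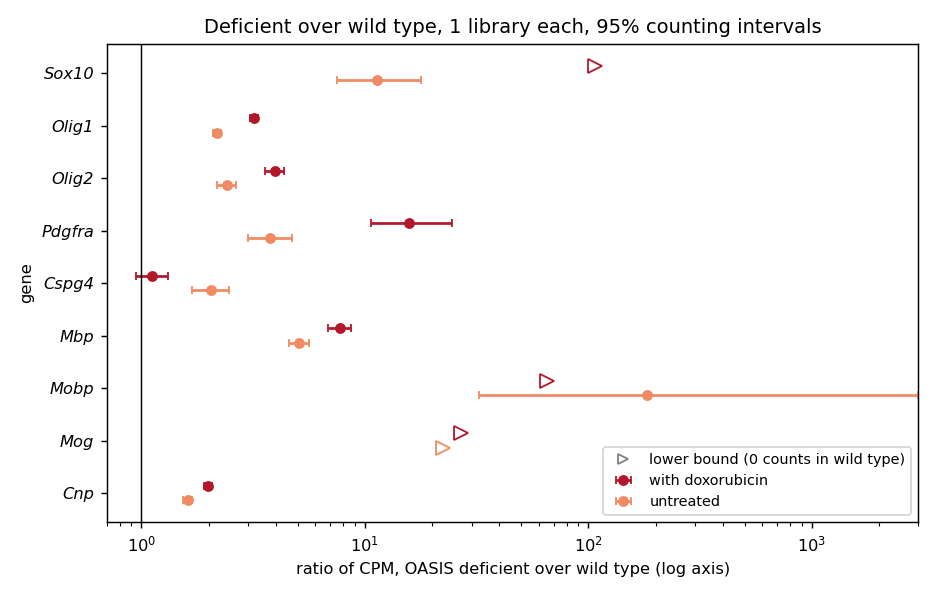
Ratio of CPM, OASIS deficient over wild type, for each member with doxorubicin (dark) and untreated (light), on a log axis; bars are 95% exact conditional intervals for counting error, and open triangles are lower bounds where wild type had 0 counts. Only the Cspg4 interval with doxorubicin (0.942 to 1.32) includes 1, and the Mobp interval without treatment runs past the axis to 7270.

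The order of levels per length also differed by genotype label. In deficient untreated cells it ran from Olig1 (282 TPM) through Cnp (147 TPM), Mbp (71.7 TPM) and Olig2 (40.6 TPM) to Sox10 (6.76 TPM), Mobp (5.17 TPM), Pdgfra (3.65 TPM), Cspg4 (2.88 TPM) and Mog (2.59 TPM). In wild-type untreated cells Olig1 (147 TPM) and Cnp (106 TPM) again came first, but Olig2 (19.1 TPM) stood above Mbp (9.46 TPM), and Cspg4 (1.78 TPM) and Pdgfra (1.14 TPM) above Sox10 (0.678 TPM). The Mbp to Cnp ratio of TPM was 0.501 in deficient and 0.0936 in wild type with doxorubicin, and 0.488 in deficient and 0.0895 in wild type untreated. With 1 library each, whether neighbours in these orders differ beyond the spread between cultures is unknown.

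The sequences before the starts of Mobp and Mog, the myelin genes at 0 or 1 count in wild type, and of Cnp, which was high throughout, are shown for contrast. They are RefSeq promoters (GRCm38.p6) cut at the annotated gene start, 5′ to 3′ on the gene's strand, with capitals for the core letters that SOX factors recognise, ACAAAG or ACAATG, on either strand (CTTTGT is ACAAAG read on the opposite strand).
Mobp, chr9:120149492-120149706, plus strand: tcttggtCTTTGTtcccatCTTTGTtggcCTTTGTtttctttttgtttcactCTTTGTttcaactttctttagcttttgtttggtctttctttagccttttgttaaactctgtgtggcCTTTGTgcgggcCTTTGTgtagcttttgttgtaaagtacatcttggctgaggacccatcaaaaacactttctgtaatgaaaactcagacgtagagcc
Mog, chr17:37023399-37023648, minus strand: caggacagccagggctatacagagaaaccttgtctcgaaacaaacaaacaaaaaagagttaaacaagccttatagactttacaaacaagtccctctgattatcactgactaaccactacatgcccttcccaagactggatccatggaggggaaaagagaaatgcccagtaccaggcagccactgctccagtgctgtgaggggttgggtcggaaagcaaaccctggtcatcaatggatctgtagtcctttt
Cnp, chr11:100574689-100574903, plus strand: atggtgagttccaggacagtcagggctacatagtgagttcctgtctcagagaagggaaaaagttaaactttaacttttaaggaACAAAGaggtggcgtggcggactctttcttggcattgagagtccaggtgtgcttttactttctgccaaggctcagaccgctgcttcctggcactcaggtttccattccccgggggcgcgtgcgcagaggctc
Over the full window of 300 bases (250 before and 50 after the RefSeq start), Mobp held 6 copies of ACAAAG, Cnp 1 and Mog none of either core. Of 32851 such windows 18.7% held ACAAAG and 12.6% ACAATG, and 1, that of Mobp, held at least 6 copies of ACAAAG, a number taken from Mobp itself. Olig2 had 1 ACAATG, Pdgfra had no SOX core and 1 E-box CAGATG (17.2% of windows), and Cspg4 had neither, nor had any member the E-box CAGCTG (16.3%). The table matched 6 of 9 members; Sox10, Olig1 and Mbp were not matched. These matches describe letters in a window and no binding was measured.

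The deposited count and TPM of a gene together carry the mean length of the transcripts its reads were assigned to, and this value separated the Mbp RNA of the genotypes. Over 845 to 1005 genes with a single annotated transcript per library, count divided by TPM followed the annotated length with Pearson's r of 0.9977 to 0.9982 across genes, which are not independent replicates, and each library's line turned the quotient into bases. For Mbp the implied mean length was 2100 bases in deficient and 2781 in wild type with doxorubicin, and 2029 in deficient and 3284 in wild type untreated. Those are ratios of 0.755 and 0.618, against a 1st to 99th percentile of 0.964 to 1.03 and 0.992 to 1.03 (lowest values 0.553 and 0.623) over 995 single-transcript genes. Genes with a single annotated transcript cannot shift between forms, so that band leaves out the spread from assigning reads among the forms of Mbp. For single genes the implied length missed the annotated one by -458 to 220 bases (lowest 5th and highest 95th percentile of the 4 libraries). A length at least 1.2-fold shorter in deficient under both treatments was seen in 0.752% of 10636 genes with at least 100 counts in every library, Mbp among them, and one at least 1.2-fold longer in 1.84%. The 10636 genes include the 995 with a single transcript.

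GENCODE lists 16 Mbp transcripts. The myelin forms that start about 79.4 kb inside the gene reach at most 2070 bases, near the deficient values. The forms longer than 2070 bases, at 2492 and 4797 bases, both start at the far upstream promoter known for golli transcripts, which immune cells and neurons also use. Both wild-type values exceeded 2492 bases and so lay between the lengths of these upstream forms. Forms of 433 and 1685 bases also start near the upstream end of the gene, so a mean length does not give the start site. Reads of single Mbp forms were not counted, and which forms or cells the RNA came from was not tested. On the TPM scale, which allows for this length, Mbp was 9.92-fold higher in deficient with doxorubicin and 7.57-fold higher untreated, more than by counts. Olig1 and Olig2, with 1 transcript each of 2162 and 2530 bases, had implied lengths of 2112 to 2166 and 2432 to 2486 bases in the 4 libraries, and Cnp 2391 to 2445 bases.

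Cspg4 differed in implied length with the treatment label instead. It stood at 4764 bases in deficient and 4946 in wild type with doxorubicin, and at 7588 in deficient and 6908 in wild type untreated, so the treatment groups did not overlap. The protein-coding transcript has 8121 bases, and 3 annotated retained-intron transcripts have 3267 to 5158 bases. A length at least 1.2-fold shorter with doxorubicin in both genotypes was seen in 0.733% of the genes measured, and one as much longer in 0.837%. Treatment coincides with the sex of the cultures here as well, and reads of single isoforms were not counted.

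**Figure D3:**
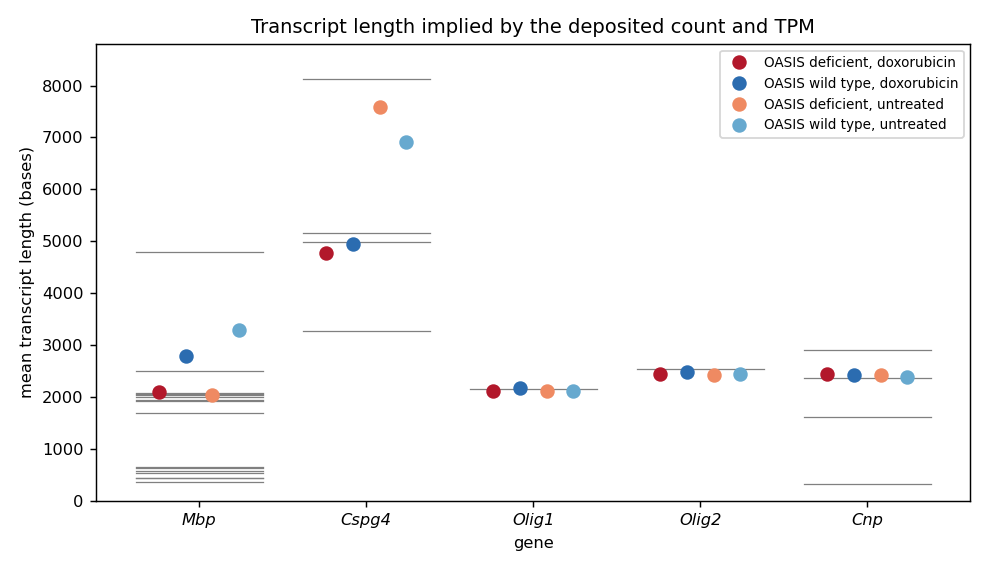
Mean transcript length in bases implied by the deposited count and TPM, 1 point per library, with grey lines at the lengths of the annotated transcripts. Mbp points of deficient (2100 and 2029 bases) lie below those of wild type (2781 and 3284 bases), Cspg4 points of doxorubicin (4764 and 4946 bases) lie below those of untreated (7588 and 6908 bases), and Olig1, Olig2 and Cnp stay within narrow ranges.

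Other genes of the lineage were read from lists of markers that share a few genes, such as Myrf and Nkx6-2. Of 25 further precursor genes 21 were measured, 12 rose in deficient cultures, 1 fell and 8 did not pass, beside 12.6% and 10.6% of all genes. Gpr17, a receptor of committed precursors, had 81 and 37 counts in deficient with and without doxorubicin and 0 in both wild-type libraries, at least 31.3-fold and 14.3-fold higher. Tnr, the matrix protein tenascin-R, had 970 against 93 counts with doxorubicin and 1011 against 150 untreated, deficient first, with an additive log2 rise of 3.27 (edgeR adjusted p 4.75e-07). Nxph1, Cacng4, Lhfpl3 and C1ql1 rose by 3.88, 2.91, 2.17 and 2.06. The member that fell was Vcan, a matrix proteoglycan, at -0.83 (adjusted p 0.0401 by edgeR). The median log2 ratio of CPM + 1 over the 21 was 1.01 with doxorubicin and 0.90 untreated, beside 0.02 and -0.03 over all genes tested.

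Of 16 markers of newly formed oligodendrocytes, all measured, 4 rose, 1 fell and 11 did not pass, against 12.6% and 10.6% of all genes. Bcas1, which marks oligodendrocytes at the onset of myelination, had 298 counts in deficient and 1 in wild type with doxorubicin, and 227 in deficient and 31 in wild type untreated (additive log2 rise 4.73, adjusted p 0.000812 by edgeR). The factor gene Nkx6-2 rose by 1.76, Tmem163 by 1.58 and the kinase gene Fyn by 0.94, and Rras2, a small GTPase gene, fell by 0.84. Enpp6, an early differentiation marker, had 29 and 0 counts in deficient and wild type with doxorubicin and 43 and 20 in deficient and wild type untreated, and did not pass (adjusted p 0.172 by edgeR). Myrf, which encodes the factor that drives myelin gene expression in maturing oligodendrocytes, had 75 and 56 counts in deficient and wild type with doxorubicin and 19 and 29 in deficient and wild type untreated, and did not pass (0.13).

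Among 30 further myelin genes 21 were measured, of which 11 rose, 4 fell and 6 did not pass (12.6% and 10.6% of all genes). Mag, an adhesion protein of the inner myelin membrane, had 283 against 28 counts with doxorubicin and 182 against 20 untreated, deficient first (additive log2 rise 3.47, adjusted p 0.000287 by edgeR). Aspa, an enzyme that breaks down N-acetylaspartate, rose by 4.49, and the myelin lipid enzyme gene Ugt8a and the membrane protein gene Pllp by 2.00 and 2.49. Anln rose by 3.44, and it encodes anillin, a cytokinesis protein, besides being listed as a myelin cell marker. Genes that fell were Nipal4, Sgk1 (-1.37), Car2 (-0.58) and Trf (-0.53), and Sgk1, Car2 and Trf are also expressed outside the lineage. Nipal4 had 0 counts in deficient and 289 in wild type with doxorubicin, at least 83.2-fold lower, and 26 in deficient and 190 in wild type untreated. With doxorubicin, which coincides with the sex of the culture, 1 of the 21, Enpp2, fell (-1.22, adjusted p 0.0147 by edgeR) and 0 rose. Of all genes, 0.141% fell and 0.0192% rose. Cldn11, a tight junction gene of myelin (2.84, adjusted p 0.0665 by edgeR), and Gpr37 (adjusted p 0.416 by edgeR) did not pass. Ermn, Fa2h, Gjb1 and Hapln2 had 0 counts in both wild-type libraries and were below the minimum level, and Ermn was also at 0 in deficient with doxorubicin. Other myelin genes below that level were lower in deficient with doxorubicin, namely Klk6 (0 against 36 counts), Ppp1r14a (3 against 27) and Opalin (8 against 12). Untreated these had 8 against 0, 14 against 14 and 12 against 0, deficient first.

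**Figure D4:**
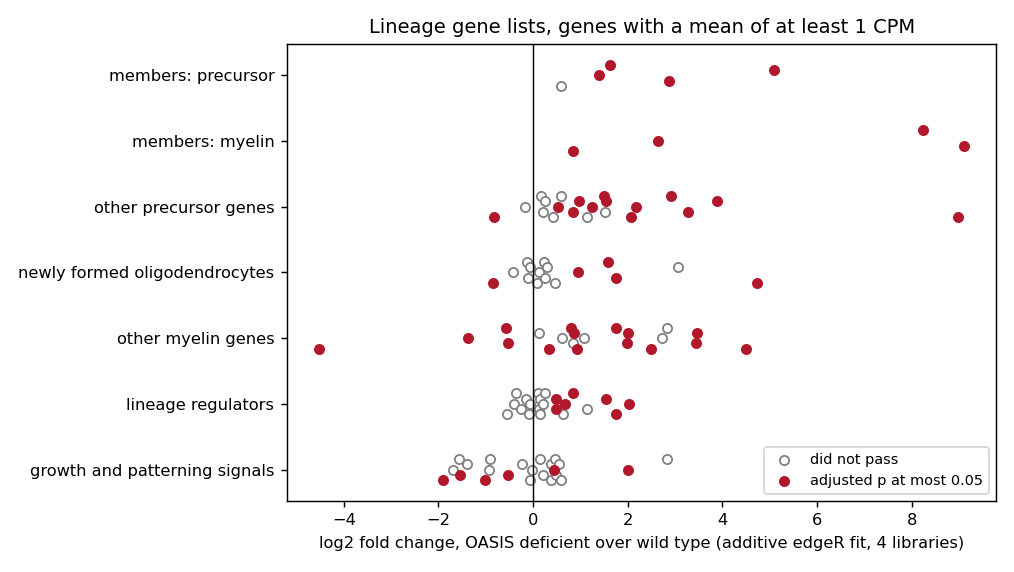
Additive log2 fold change, deficient over wild type, of every measured gene of the member groups and 5 further lists (rows, with points spread vertically for legibility); filled points passed an adjusted p of 0.05 in edgeR and open points did not. The 8 called members and most called precursor and myelin genes lie right of 0, Nipal4 at -4.52 lies farthest left, and values above 8 belong to genes with at most 1 count in each wild-type library, whose fitted size is no measured fold.

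Of 24 regulators of the lineage 22 were measured, and 7 rose while 0 fell (12.6% and 10.6% of all genes). Hes5, a Notch target that holds progenitors undifferentiated, rose by 2.03 (adjusted p 0.0219 by edgeR), with 161 against 44 counts with doxorubicin and 153 against 45 untreated, deficient first. Nkx6-2 rose by 1.76, and Sox6, Sox9, Sox2 and Id4 by 0.84, 0.67, 0.49 and 0.48. Sox9 and Id4 are astrocyte genes as well. Nkx2-2, an early lineage factor with an estimate of 1.14, did not pass (adjusted p 0.218 by edgeR), and neither did Sox8 (0.25), which encodes a close relative of SOX10.

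Among 23 growth and patterning signals 2 rose and 4 fell, beside 12.6% and 10.6% of all genes. Pdgfa, the ligand of the receptor encoded by Pdgfra, went the other way from its receptor. It had 1353 counts in deficient and 5188 in wild type with doxorubicin, and 1049 in deficient and 3149 in wild type untreated, an additive log2 change of -1.55 (SE 0.146, edgeR adjusted p 1.31e-06). Nrg1, a ligand of ERBB receptors, fell by 1.90, Tnfrsf1b by 1.01 and Igf1, a growth factor for the lineage, by 0.54. Cntf, a survival factor for oligodendrocytes, rose by 2.01, with 2221 against 643 counts with doxorubicin and 2437 against 695 untreated, deficient first, and Fgfr2 rose by 0.45. Shh (-1.69), Erbb3 (-1.57) and Gli1 (2.83) did not pass (adjusted p 0.101, 0.414 and 0.225 by edgeR).

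Some markers of other cells moved with the genotype label too, and their part in the lineage result was not tested. Of all genes tested, 12.6% rose and 10.6% fell. All 16 mitosis genes rose in deficient, of which 1 (Aurkb, 0 counts in both wild-type libraries) was tested only through the deficient libraries. Their summed levels were 1830 against 102 CPM with doxorubicin and 1250 against 81.5 CPM untreated, deficient first. Of 12 astrocyte markers 9 rose and 0 fell, led by Gfap (2.37) and the water channel gene Aqp4 (1.55), at sums of 9820 against 3810 CPM with doxorubicin and 11200 against 3930 CPM untreated, with Gjb6 at 0 in wild type untreated. Of 12 neuronal markers 8 were measured, 5 rose, of which 3 (Dcx, Gad1 and Snap25) were tested only through the deficient libraries, and the sums were 447 against 203 CPM and 416 against 231 CPM; the synaptic gene Snap25 and the young neuron gene Dcx were at 0 in both wild-type libraries and the transporter gene Slc17a6 in all 4. Of 12 microglia markers 1 rose (Tmem119) and 1 fell (Csf1r), no more than those shares of all genes. Their sums were 812 against 918 CPM with doxorubicin and 1210 against 1280 CPM untreated, deficient first, with none at 0. Schwann cells also express Sox10, and of their 12 markers 7 were measured, 3 rose, Sox10 among them, and 1, Pou3f1, fell by 4.26. Their sums were 542 against 225 CPM with doxorubicin and 501 against 237 CPM untreated, deficient first.

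Between treatment labels the members differed little in deficient cultures and more in wild type. The log2 ratios of CPM + 1, doxorubicin over untreated, ran from -0.34 (Cspg4) to 0.30 (Olig2) in deficient and from -1.59 (Pdgfra) to 0.47 (Cspg4) in wild type. Below 0 were 6 members in deficient and 7 in wild type, where Mobp (-0.07) rests on 0 against 1 count. On TPM the Cspg4 value in deficient turned to 0.29, with 0.67 in wild type. By size, 0 members were 2-fold higher or lower in deficient (1.58% and 1.93% of all genes). In wild type 0 were 2-fold higher and 2 were 2-fold lower (4.08% and 5.45% of all genes), Pdgfra with 26 counts with doxorubicin against 108 untreated and Sox10 with 0 against 25, at least 9.58-fold lower. Mbp had 318 against 429 counts in wild type, a ratio of 0.645 (0.556 to 0.747), and 2119 against 1879 in deficient, a ratio of 0.981 (0.922 to 1.04). The additive doxorubicin test called 0 of 9 members in edgeR (0.0192% of all genes rose and 0.141% fell), with 1 of 9, Pdgfra, at an unadjusted p under 0.05, and 0 of 9 were called by limma-voom. DESeq2 gave an adjusted p for Olig1, Olig2, Mbp and Cnp only and called none of these.

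Subtracting the wild-type response from the deficient one gave a difference of at least 1 on the log2 scale for 2 members, Pdgfra (1.41) and Sox10 (1.16), as in 7.66% of all genes, and of at most -1 for none (6.05%). The others ran from -0.81 (Cspg4) to 0.69 (Olig2), with Mbp at 0.57, Olig1 at 0.54 and Cnp at 0.30. With 1 library for each combination this difference has no test.

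Genes with the most similar pattern were sought by the distance of log2(CPM + 1), centred on each gene's mean, over the 4 libraries among 11359 protein-coding genes outside the lists with a mean of at least 5 CPM. For Sox10 the nearest were Lrtm2 (distance 0.188), Slc1a1, Prc1, Tnfaip8l1 and Cenpu (0.427), and Lrtm2 had 324 and 0 counts in deficient and wild type with doxorubicin and 262 and 33 in deficient and wild type untreated. For Pdgfra they were Ercc6l (0.260), Nxpe4, Ppp1r1b, Cdca7 and Reln (0.401). For Mbp they were Rgcc (0.131), Csgalnact1, Nrm, Chaf1b and 4933407L21Rik (0.257). Genes of dividing cells are among these neighbours, for instance Prc1 (spindle midzone) and Chaf1b (chromatin assembly), and the rest were not sorted by role. With 4 points per gene such likeness is weakly defined.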

How the data were processed

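Total RNA was turned into libraries with a SMART-Seq v4 kit, per the labels' protocols, so strand is not known. DRAGEN and the genome GRCm38 come from the submitters' processing notes. Not given in the sources used here are annotation release, read filters and software version. The authors deposited an estimated count per gene, not normalized, and a TPM value per gene, per the file headers. Estimated counts were rounded to whole numbers for the tests.

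Identifiers were matched without version to GENCODE vM21 (55141 of 55487; all members matched), and each library was grouped by its genotype and treatment labels. Genes with a mean of at least 1 CPM over the 4 libraries (TMM scaling) were fitted with edgeR 4.0.16 in R 4.3.3 (quasi-likelihood test, genotype plus treatment), checked on simulated data. The common dispersion was 0.0863. Single libraries were compared by ratios with exact conditional binomial 95% intervals and, by size, by a log2 ratio of CPM + 1 of at least 1 or at most -1. A count of 0 allows up to 3 counts, or 0.131 to 0.174 CPM. PCR reads carry no molecular identifiers here and are not separate molecules; both the intervals and the floors therefore describe counting error alone.

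Implied lengths came from a Theil-Sen line through single-transcript genes with at least 200 counts, fitted in each library. That measure was chosen after the data were examined. The members and lists were chosen with earlier results of these data known. Named genes are all members, up to 6 per further lineage list with the largest absolute additive genotype change, a few others named for their call or role after their values were seen, and the 5 nearest patterns of 3 members. Some genes counted in the lists are not reported here by name. Alternatives were DESeq2 1.42.0, limma-voom (limma 3.58.1), other scalings, pseudocounts and minimum levels, TPM, and a model without the other factor.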

Additional observations from a re-analysis of the deposited data

Results flagged for a closer look

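Olig1, Olig2 and Cspg4 were picked out because their counts after doxorubicin went opposite ways in the genotypes, each beyond its counting interval. The share of all genes that meet this rule was not counted, and counting intervals are narrow for genes with many counts. The intervals below are those used for the choice, so they are no separate evidence. The difference of the log2 responses, deficient minus wild type, was 0.54 for Olig1, 0.69 for Olig2 and -0.81 for Cspg4. Olig1 with doxorubicin was 1.07 times the untreated level in deficient (1.04 to 1.11) and 0.734 times in wild type (0.702 to 0.768). Olig2 was at 1.24 times (1.15 to 1.33) in deficient and 0.755 times (0.671 to 0.848) in wild type. Cspg4 was at 0.778 times (0.660 to 0.918) in deficient and 1.43 times (1.18 to 1.73) in wild type. For Cspg4 that opposition was lost on TPM, at 1.30 times in deficient and 1.93 times in wild type. Its log2 difference on TPM was -0.38, taken after adding 1 TPM to each value, unlike the plain ratios. Olig1 (1.09 and 0.686 times) and Olig2 (1.26 and 0.706 times) kept opposite directions on TPM. The differences between genotypes were not tested, since each rests on 4 single libraries, and the intervals hold no variation between cultures.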

How the results depend on the processing

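As for genotype, 8 of 9 members rose under every alternative that tested all of them except DESeq2, where Sox10 did not pass (adjusted p 0.0681 against 8.91e-11 to 0.0317 in the others), and with a minimum of 5 CPM, which left out Mobp and Mog, the other 6 were called. Counts of all genes called for doxorubicin changed. Against 3 higher and 22 lower, there were 22 and 55 with DESeq2 size factors, 26 and 73 with a minimum of 5 CPM, 17 and 67 with limma-voom, 6 higher with DESeq2, 10 lower with no minimum, and 0 and 0 without genotype in the model. The 7 members 2-fold higher in deficient by size became 6 under each treatment with a pseudocount of 5 CPM, which lost Mog (0.77 with doxorubicin, 0.74 untreated), and 6 untreated on TPM, which lost Olig1 (0.94). The members that were 2-fold lower with doxorubicin in wild type numbered 2, and 0 on TPM or with a pseudocount of 5 CPM, and the same holds for the 2 members whose responses differed by at least 1. Signs turned for doxorubicin estimates that passed in no fit: Olig2 (0.13 without genotype, 0.09 in limma-voom), Cspg4 (-0.01 without genotype) and Mog (-0.00468 in DESeq2). The cause was not tested. On TPM the median of all genes stood at -0.21 for deficient over wild type untreated. With a least-squares line in place of Theil-Sen the Mbp length ratios were 0.753 and 0.616, and with minima of 50 and 300 counts 0.899% and 0.505% of genes shortened likewise, choices made after the data were examined. Depth limits Mog, Mobp and Sox10, whose wild-type counts were at or near 0.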
